A study of Arabidopsis thaliana with 28 samples.

Results

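The genes described here are the 33278 nuclear genes of the deposited expression table of 33557 genes, classed by the histone marks they carried in diploid Arabidopsis thaliana seedlings. Col-0, the Columbia accession and the wild type of the study, was kept for 3 days in the cold. It was then grown for 10 days on plates of 0.8% agar containing 1% sucrose, under days of 16 h of light. The study states that the parts above ground were taken for ChIP-seq and RNA-seq, while its ChIP protocol speaks of seedlings. Chromatin immunoprecipitation (ChIP-seq) was carried out with antibodies to H3K4me3 (2 libraries), H3K27me3 (2 libraries) and to histone H3 itself (1 library), and the RNA of 3 Col-0 samples was given as a single FPKM (fragments per kilobase of gene, scaled to the depth of the library) for each gene, with no spread over the samples. A gene was called marked when a peak covered at least 1 base of its body in both replicates. This put 13564 genes (40.8%) in the class H3K4me3 only, 5883 genes (17.7%) in H3K27me3 only, 1378 genes (4.14%) in both and 12453 genes (37.4%) in neither. The autotetraploid libraries of the series were not used.

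H3K4me3 is trimethylation of lysine 4 of histone H3. Trithorax-type methyltransferases such as ATX1 and SDG2 write it near the start of transcribed genes. H3K27me3, trimethylation of lysine 27, is written by Polycomb repressive complex 2, whose catalytic subunits in Arabidopsis are CLF, SWN and MEA, and it spreads over the bodies of genes that are silent in a given tissue or stage. Floral homeotic genes, seed storage genes and FLC, the repressor of flowering, are well-known Polycomb targets in seedlings.

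The peak lists held 16520 and 16694 H3K4me3 peaks with median widths of 572 and 493.5 bases, and 6780 and 7127 H3K27me3 peaks with median widths of 1475 and 1362 bases. H3K4me3 peaks lay on 16084 genes in replicate 1 and 15263 in replicate 2, of which 14942 were shared. H3K27me3 peaks lay on 7623 and 7725 genes, of which 7261 were shared. A peak in 1 replicate only was found on 1463 genes for H3K4me3 and on 826 genes for H3K27me3. The genes in neither held 1091 of those H3K4me3 cases and 584 of those H3K27me3 cases. Few genes were near the limit of the rule: 52 genes had 50 or fewer bases of H3K4me3 in the weaker replicate and 45 had 50 or fewer of H3K27me3, while 748 and 491 genes without the mark had a peak of it within the 500 bases upstream in both replicates.

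The H3K4me3 libraries covered more genes than the H3K27me3 libraries and, at the authors' threshold, less of the genome. A mean of 47.1% ± 1.74 of the nuclear genes had an H3K4me3 peak, against 23.1% ± 0.217 with an H3K27me3 peak (SD, n = 2 libraries each), a difference of 24.0 percentage points. H3K4me3 peaks took up 8.65% and 7.53% of the genome, and H3K27me3 peaks 11.7% and 11.4%. With peaks at a q-value of 1e-05 or less this difference became −0.3334 percentage points, against −3.48, the libraries of the marks overlapped, and the difference in the pericentromeric share became −0.713 points, against −1.51. The genes under H3K4me3 peaks had a median log2(FPKM + 1) of 3.45 and 3.51, and those under H3K27me3 peaks 0.15 and 0.16. The median length of the genes was 2246 and 2261 bases under H3K4me3 and 1517 and 1530 bases under H3K27me3. The libraries of the 2 marks did not overlap in any of the 5 measures, the last being the share of genes in pericentromeres. With 2 libraries against 2, the two-sided exact permutation test gave p = 0.3333 for each measure, the smallest value it allows, and the Benjamini-Hochberg adjusted p over the 5 measures was also 0.3333. No difference between the marks could reach significance in this design, and the class comparisons that follow are descriptions over genes, which are not replicates. The supplement of the study calls the libraries of a mark biological replicates, and neither it nor the labels say whether they came from separate cultures. The peaks of H3K4me3 replicate 2 are named 'merge' within their list, whose meaning is not stated. It may hold pooled reads, and the agreement of the H3K4me3 lists may then be closer than that of independent libraries. The deposited lists of this mark also carry replicate numbers opposite to the sample titles, and the titles were followed.

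The marks met on fewer genes than the product of their shares would give. Of the 14942 genes with H3K4me3, 9.22% also had H3K27me3, against 32.1% of the genes without H3K4me3. The product of the 2 shares comes to 3260 genes, and the 1378 genes observed were 0.423 of it. The same ratio was 0.490 with the replicate 1 lists alone and 0.448 with the replicate 2 lists alone. When the genes were split into 5 equal groups by length, the ratio was 0.828 in the shortest group (up to 847 bases) and between 0.376 and 0.463 in the other 4.

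The most visible difference between the classes was in expression. H3K4me3 only genes had a median of 11.8 FPKM, with a lower quartile of 4.20 and an upper quartile of 32.5, and 91.8% of them reached 1 FPKM. H3K27me3 only genes had a median of 0.0277 FPKM and an upper quartile of 0.954, and 24.7% reached 1 FPKM. Genes with both marks lay between these classes, with a median of 2.90 FPKM, quartiles of 0.432 and 11.1, and 65.7% at 1 FPKM or more. Genes with neither mark had a median of 0 and an upper quartile of 0.865. On the log2(FPKM + 1) scale, the median of H3K4me3 only exceeded that of H3K27me3 only by 3.64. The difference was 3.58 with the replicate 1 lists alone and 3.63 with the replicate 2 lists alone.

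**Figure D1:**
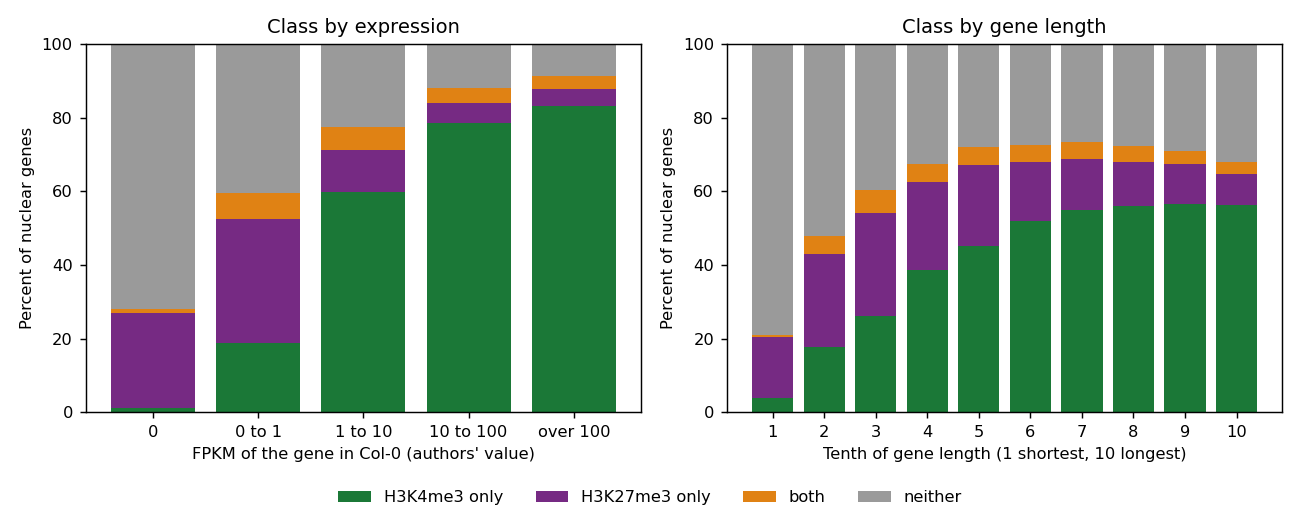
Stacked bars give the percent of nuclear genes in each class, by FPKM range (left, from genes listed at 0 to genes over 100 FPKM) and by 10 equal groups of gene length (right, from shortest to longest). The H3K4me3 only share was 1.15% among genes listed at 0 and 83.05% among genes above 100 FPKM, and the H3K27me3 only share was highest, 27.9%, in the third length group.

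Read the other way, expression sorted the classes steeply. Of the 10171 genes listed at 0, 117 were H3K4me3 only, 2633 were H3K27me3 only, 105 had both marks and 7316 had neither. Between 0 and 1 FPKM the H3K27me3 only share was at its highest, with 33.8% of 5313 genes. Above 100 FPKM, 1264 of 1522 genes were H3K4me3 only, 70 were H3K27me3 only, 54 had both marks and 134 had neither. A value of 0 can also be a failed estimate, which was not tested.

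Within a class, more of the mark went with the direction that the class itself showed, although weakly. H3K4me3 only genes were divided into 4 equal groups by the fold enrichment of their highest peak, averaged over the replicates. The median FPKM was 7.64 in the lowest group, 10.9 and 12.9 in the middle groups, and 15.8 in the highest (Spearman rho of 0.181 across 13564 genes). By the share of the gene body covered, the medians were 6.28, 11.3, 15.4 and 21.7 FPKM. H3K27me3 only genes ran the opposite way. Their median was 0.155 FPKM in the least covered group and 0 in the most covered, where 56.3% of genes were listed at 0. By enrichment it was 0.0601 FPKM in the lowest and 0.00617 in the highest group, a slight trend (Spearman rho of −0.0736 across 5883 genes). In genes with both marks, the median FPKM was 1.498 in the lowest and 4.47 in the highest group by H3K4me3 enrichment, and 5.65 in the lowest and 1.73 in the highest group by H3K27me3 enrichment. Coverage is tied to length, since the most covered H3K4me3 only genes had a median length of 1389 bases and the least covered 3888 bases. For H3K27me3 only genes these medians were 1092 and 1915 bases.

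Gene length also separated the classes. The median was 2305 bases in H3K4me3 only, 1467 bases in H3K27me3 only, 1792.5 bases in both and 1360 bases in neither, and 1843 bases over all nuclear genes. The share of H3K4me3 only was larger in the longer of 10 equal length groups, with 3.90% of genes up to 491 bases, 45.2% of those between 1533 and 1843 bases and 56.4% of those above 4100 bases. H3K27me3 only reached its highest share, 27.9%, between 848 and 1206 bases and stood at 8.42% in the longest group. Genes with both marks made up between 3.25% and 6.25% of every group but the shortest, where they were 0.570%. A longer body offers more bases to meet the 1-base rule. When only the first 500 bases of each gene were read, the length difference was 923 bases, against 838 bases over the whole body. A minimum share of the body selects for short genes by its construction, since the covered share fell with length (Spearman rho of −0.737 across the H3K4me3 only genes), and the difference was −230 bases at a minimum of 50%.

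Within every length group, H3K4me3 only genes reached 1 FPKM most often and genes with both marks next. In the shortest group, 80.1% of H3K4me3 only genes reached 1 FPKM, against 19.5% of H3K27me3 only, 67.4% of both and 10.8% of neither. In the longest group the shares were 92.3%, 30.8%, 64.4% and 27.4%. The median FPKM of H3K4me3 only was 18.1 in the shortest group, 21.4 in the next and 7.89 in the longest. Genes with both marks varied little by length, with medians between 2.29 and 3.81 FPKM.

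**Figure D2:**
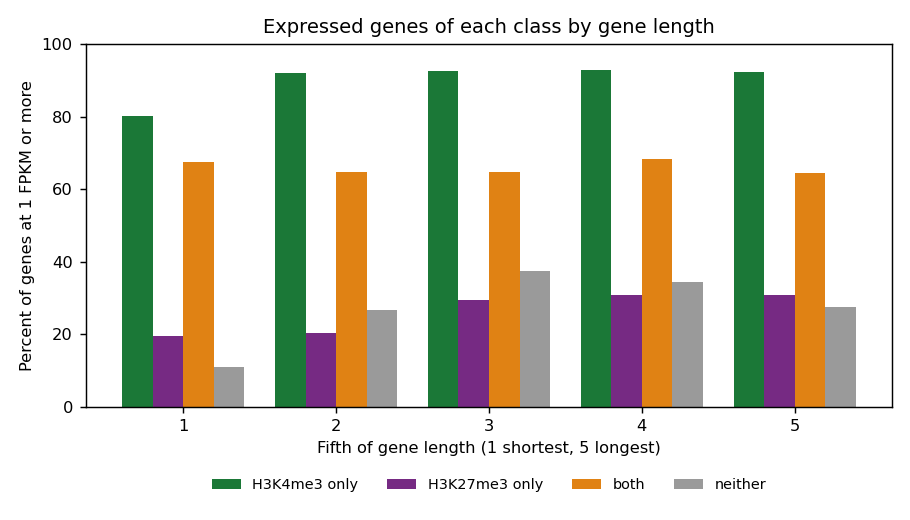
Bars give the percent of the genes of each class at 1 FPKM or more (y axis) in 5 equal groups of gene length, shortest to longest. The bars of H3K4me3 only stand at 80.1% or above in all 5 groups, those of both between 64.4% and 68.3%, and those of H3K27me3 only between 19.5% and 30.8%.

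The marks took different places along the gene. Gene bodies were scaled to the same length, and the percent of genes under a peak was read at each position in each library. In H3K4me3 only genes, H3K4me3 was most frequent 8.75% of the way along the body, where 83.5% of genes were covered in replicate 1 and 79.1% in replicate 2. At the end of the body 2.69% and 2.02% were covered. The middle of the nearest H3K4me3 peak lay a median of 328 and 310 bases after the gene start, and 96.7% of these genes had the mark within their first 500 bases in both replicates. H3K27me3 formed a plateau. In H3K27me3 only genes it covered 72.3% and 68.7% of genes at the start of the body, 85.9% and 84.7% in the middle and 65.4% and 62.8% at the end, and 46.8% and 45.1% of genes were already covered 250 bases upstream. The mark lay over a median of 99.0% and 96.0% of the body in these genes, and 2391 of the 5883 (40.6%) were covered from end to end. H3K4me3 covered a median of 25.6% and 22.9% of the body of H3K4me3 only genes, that is 596 and 545 bases.

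**Figure D3:**
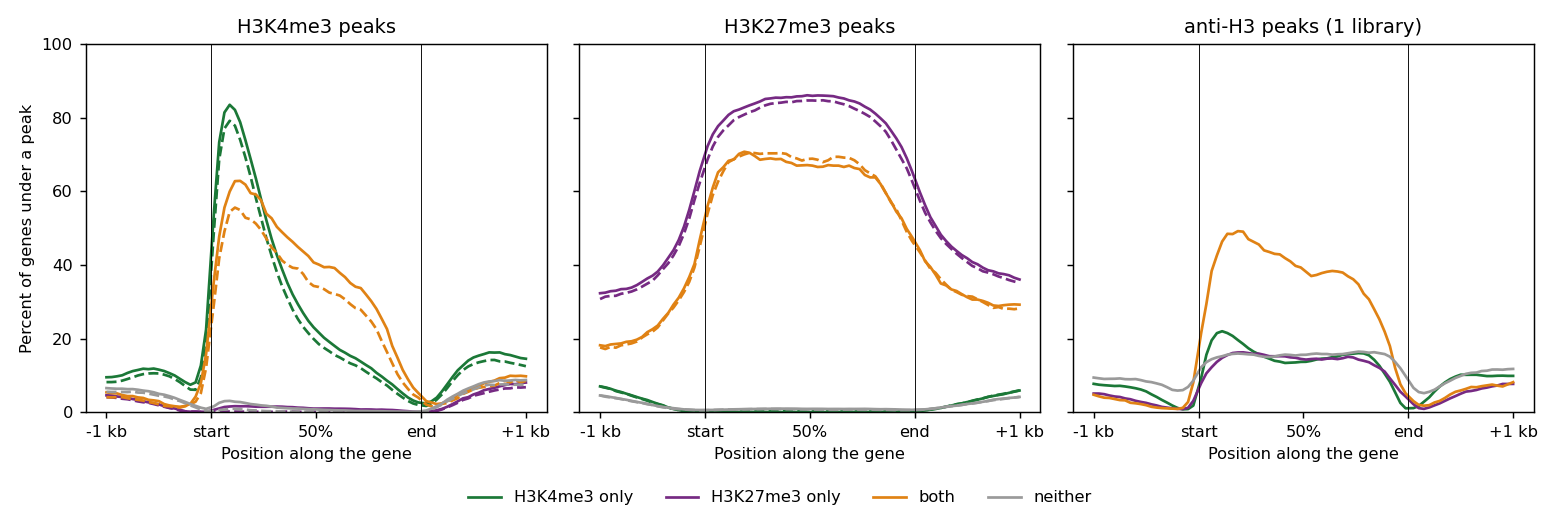
Lines give the percent of genes of each class under a peak (y axis) along scaled gene bodies with 1 kb on each side (x axis), for H3K4me3, H3K27me3 and anti-H3. Solid lines are replicate 1 and dashed lines replicate 2. H3K4me3 stands highest just inside the gene start, H3K27me3 lies flat over the body, and the anti-H3 line of genes with both marks reaches 49.2%, against 22.0% or less in the other classes.

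In the 1378 genes with both marks, H3K4me3 was still near the start but reached further along the scaled body. In bases it covered less, a median of 547 and 457 against 596 and 545 in H3K4me3 only genes. The genes with both marks were shorter, with a median of 1792.5 against 2305 bases. H3K4me3 covered 62.8% and 55.6% of them at its highest point. In the middle of the body it covered 40.1% and 34.0%, against 21.7% and 18.5% in H3K4me3 only genes. Its median fold enrichment was 3.44 and 3.02 in genes with both marks and 4.36 and 3.99 in H3K4me3 only genes. H3K27me3 covered a median of 72.3% and 73.7% of the body, and its median fold enrichment was 2.24 and 2.53, against 2.61 and 2.84 in H3K27me3 only genes. Both enrichments were therefore lower in these genes than in the classes with a single mark, in each replicate. Counting only bases under each mark in both replicates, the marks shared at least 1 base in 1057 of the 1378 genes (76.7%), over a median of 343 bases. With the replicate 1 lists alone 1114 of the genes had shared bases, and with the replicate 2 lists alone 1098. The 321 genes outside the 1057 had no base under both marks in both replicates. Those genes were longer, with a median of 2639 against 1573 bases, and had a median of 3.67 against 2.65 FPKM. A seedling holds many cell types, so a gene marked in both ways cannot be told apart from a gene that carries each mark in different cells, nor can few marked or active cells be told apart from a low level in all cells.

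Peaks of the anti-H3 library stood out in the same genes. An anti-H3 peak overlapped 83.2% of the genes with both marks, against 50.7% of H3K4me3 only, 36.4% of H3K27me3 only, 35.2% of neither and 43.7% of all nuclear genes. Within the 5 length groups the share for genes with both marks stayed between 78.5% and 86.1%. Anti-H3 peaks took up 9.53% of the genome, 32.1% of the bases under H3K4me3 in both replicates, 12.6% of the bases under H3K27me3 and 75.3% of the 424895 bases under both marks. The paper states that anti-H3 reads were also the control for calling the peaks of the marks. The series holds Col-0 input libraries too, and whether the deposited lists used them was not tested. The 232 genes with both marks and no anti-H3 peak had a median of 3.42 FPKM, and the 1146 with one had 2.74. The part of the anti-H3 signal in the class was not tested.

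Promoter sequence was the next feature that the rule had not used. The 250 bases before and 50 after each gene start were read from the RefSeq TAIR10.1 genome, whose nuclear chromosomes have the lengths of TAIR10, for 33277 genes. They were searched on both strands for TGGGCC (part of the site II element of genes for growth and translation), TATAAA (the TATA box), GAGAGA (a GA repeat, which can overlap itself) and AAACCCTA (the telobox). GA repeats and teloboxes are known from plant Polycomb response elements. TGGGCC stood in 22.3% of H3K4me3 only promoters, 5.34% of H3K27me3 only, 8.64% of both and 8.45% of neither, against 13.6% of all promoters. TATAAA stood in 46.5% of H3K4me3 only, 57.1% of H3K27me3 only, 58.3% of both and 45.0% of neither, against 48.3% of all. GAGAGA was found in 44.4%, 35.9%, 44.8% and 31.6% of the classes in that order, and in 38.1% of all promoters. AAACCCTA was found in 9.35%, 9.67%, 5.81% and 6.38%, and in 8.15% of all. The promoters also differed in base composition, with a GC content of 34.3% in H3K4me3 only, 32.3% in H3K27me3 only, 32.7% in both and 34.3% in neither. The part of base composition in the motif shares was not tested. Among protein-coding genes above 10 FPKM, TGGGCC stood in 23.7% of 7275 H3K4me3 only promoters and 3.56% of 478 H3K27me3 only promoters, and TATAAA in 49.2% and 70.3% of them.

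The 4 promoters printed here show these letters in genes of known class. Each was the first gene of its class in a list described later to hold the motif, so its match was a condition of the choice, and only the named motif is in capitals, on either strand. PP2AA3, a subunit of protein phosphatase 2A and a standard reference gene, was H3K4me3 only (chr1:4567758-4568057, minus strand) and is shown for TGGGCC. DOG1, a regulator of seed dormancy, was H3K27me3 only (chr5:18591351-18591650, minus strand), with an H3K4me3 peak in replicate 1 alone, and is shown for TATAAA. SEP1, a floral organ identity gene, was H3K27me3 only (chr5:5154105-5154404, minus strand) and is shown for AAACCCTA. LFY, which starts flower formation, carried both marks (chr5:24844045-24844344, plus strand) and is shown for GAGAGA. All 4 are given 5′ to 3′ with the gene start 50 bases before their end.
PP2AA3: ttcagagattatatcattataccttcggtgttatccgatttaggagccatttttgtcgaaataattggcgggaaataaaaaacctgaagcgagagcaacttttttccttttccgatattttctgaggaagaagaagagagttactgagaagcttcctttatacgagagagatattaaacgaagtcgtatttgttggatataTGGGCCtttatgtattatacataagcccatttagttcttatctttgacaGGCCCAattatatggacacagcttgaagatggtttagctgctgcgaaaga
DOG1: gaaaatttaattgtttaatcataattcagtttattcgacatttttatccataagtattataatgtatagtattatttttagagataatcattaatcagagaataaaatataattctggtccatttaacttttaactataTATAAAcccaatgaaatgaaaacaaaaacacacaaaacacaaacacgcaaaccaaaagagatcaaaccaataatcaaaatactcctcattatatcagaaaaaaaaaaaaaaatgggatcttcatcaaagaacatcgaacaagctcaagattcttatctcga
SEP1: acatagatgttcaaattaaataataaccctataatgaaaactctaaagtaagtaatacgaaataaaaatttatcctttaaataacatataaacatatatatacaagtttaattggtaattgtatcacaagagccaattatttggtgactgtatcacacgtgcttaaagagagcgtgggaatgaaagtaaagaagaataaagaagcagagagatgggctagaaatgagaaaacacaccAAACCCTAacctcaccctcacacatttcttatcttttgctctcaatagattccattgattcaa
LFY: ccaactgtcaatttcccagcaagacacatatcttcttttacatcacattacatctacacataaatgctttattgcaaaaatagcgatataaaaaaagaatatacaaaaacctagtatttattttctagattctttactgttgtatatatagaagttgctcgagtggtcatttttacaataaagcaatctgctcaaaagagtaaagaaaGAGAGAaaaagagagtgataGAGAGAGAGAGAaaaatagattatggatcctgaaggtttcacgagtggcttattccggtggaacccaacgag
TGGGCC occurred at 2 places in the promoter of PP2AA3, once on each strand, and GAGAGA lay in the last 100 bases of the promoter of LFY. A match is a string of letters and does not show that a factor binds there.

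The classes were unevenly placed on the chromosomes. Pericentromeres were taken as the gene-poor stretch around each centromere, where the density of coding genes fell under 50% of the chromosome median, and held 4097 genes. Of these, 266 were H3K4me3 only (6.49%), 222 were H3K27me3 only (5.42%), 30 had both marks (0.732%) and 3579 had neither (87.4%). The pericentromeres took 1.96% of all H3K4me3 only genes, 3.77% of H3K27me3 only, 2.18% of both and 28.7% of neither. Few of the genes there were protein-coding (24.4%, against 87.6% in the arms). Among the 1001 protein-coding genes of the pericentromeres, 24.3% were H3K4me3 only, 14.8% were H3K27me3 only and 58.6% had neither mark, against 49.4%, 20.6% and 25.1% of the coding genes of the arms. At the chromosome ends, the outer 5% of each side, H3K4me3 only made up 54.1% of genes, against 44.3% in the arms, and H3K27me3 only made up 13.7%, against 20.2%.

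**Figure D4:**
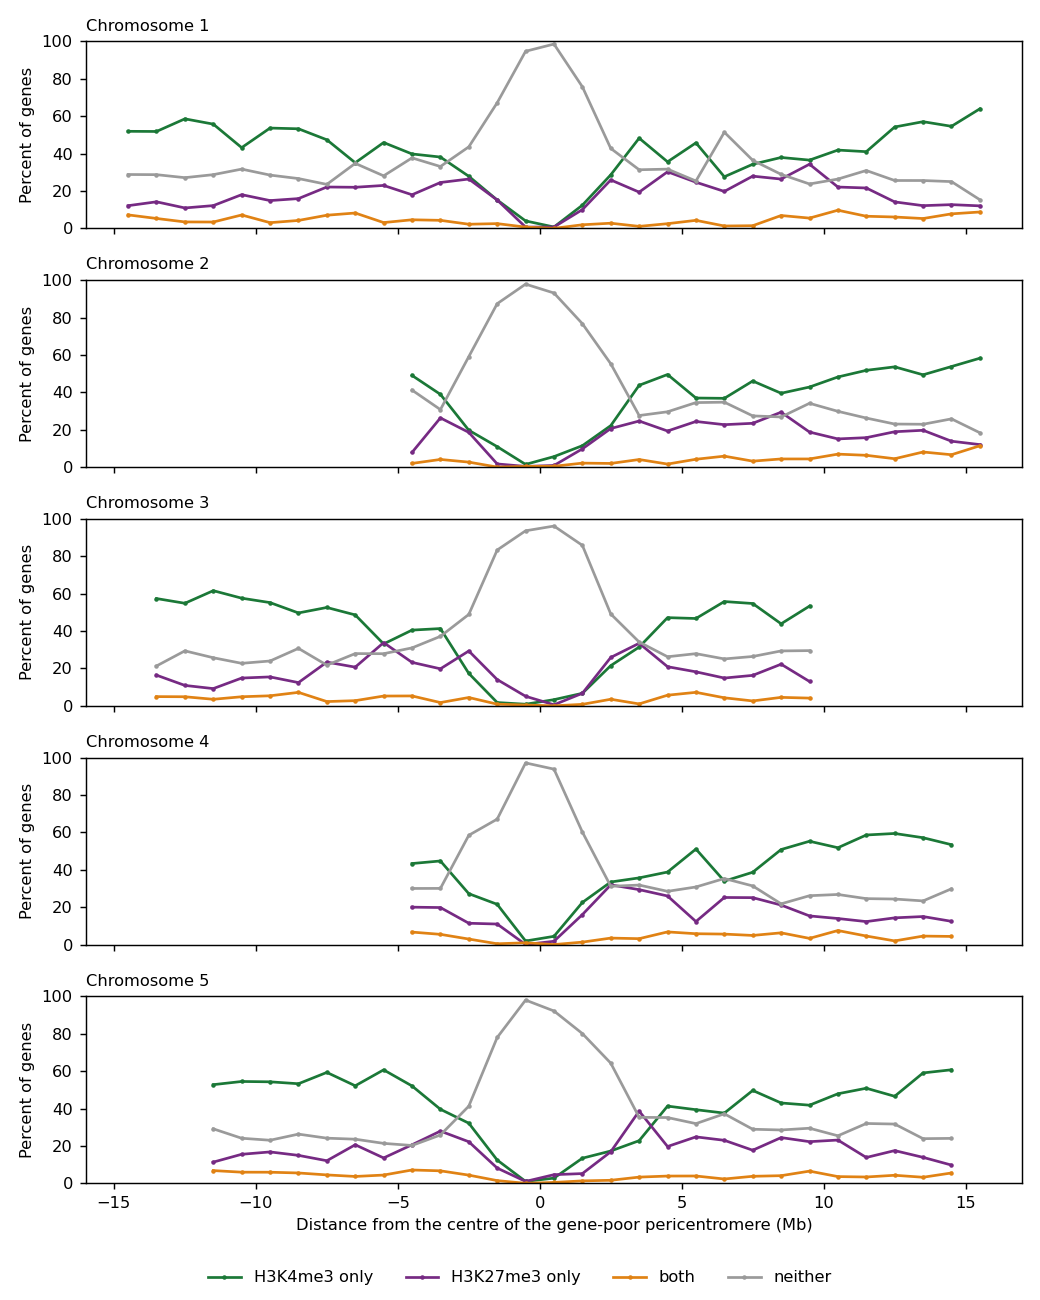
Lines give the percent of genes in each class (y axis) in 1 Mb windows with at least 20 genes, by distance from the centre of the pericentromere (x axis, in Mb), for the 5 chromosomes. On every chromosome the grey line of neither peaks at the centre, and over all chromosomes H3K27me3 only was highest, 24.6%, between 2 and 4 Mb from it.

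With distance from the centre of the pericentromere, the 2 single-mark classes followed different courses. H3K4me3 only made up 7.91% of genes within 2 Mb, 32.0% between 2 and 4 Mb, 44.1% between 4 and 6 Mb, 48.1% between 8 and 10 Mb and 55.4% beyond 12 Mb. H3K27me3 only made up 5.82%, 24.6%, 21.8%, 19.5% and 13.9% in the same ranges. Outside the pericentromeres the 5 chromosomes were alike, with 43.6% to 47.8% of genes H3K4me3 only and 18.8% to 20.1% H3K27me3 only.

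Neighbouring genes often shared a class. An H3K27me3 only gene was followed by another in 43.9% of cases, although the class held 17.7% of all genes. H3K4me3 only was followed by H3K4me3 only in 54.3% of cases, both by both in 11.3% and neither by neither in 55.3%. The value for H3K27me3 only was 43.5% and 44.6% with the replicate 1 and the replicate 2 lists. Of the H3K27me3 only genes, 1003 (17.0%) stood in 149 runs of 5 or more, and of the H3K4me3 only genes 3665 (27.02%) stood in 558 such runs. Among neighbours, pairs of H3K4me3 only genes were more frequent when the genes were divergent (24.4%) or convergent (24.1%) than in tandem (20.1%). Pairs of H3K27me3 only genes ran the other way, with 6.01% of divergent, 6.79% of convergent and 9.01% of tandem pairs. A broad peak can span several genes, so neighbours under a single peak are not independent calls.

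The longest run of H3K27me3 only genes held 24 genes on chromosome 3 (chr3:7715393-7770261, 54.9 kb of TAIR10, AT3G21900 to AT3G22057). It is a tandem array: 10 of the genes are annotated as cysteine-rich repeat secretory proteins, and most of the rest as related receptor-like kinases or as their pseudogenes. Of the 24 genes, 23 were listed at 0 FPKM, and the exception, AT3G21950, a methyltransferase gene, had 3.55 FPKM. AT3G21920 was covered by H3K27me3 over 17.6% and 16.7% of its body and AT3G21930 over 16.3% and 17.6%, whereas 20 of the 24 genes were covered in full in both replicates. The next longest runs held 21 genes on chromosome 1 and 20 genes on chromosome 3. The longest H3K4me3 only run, 18 genes, ended at the tip of chromosome 3, and the longest run of genes with neither mark held 169 genes in the pericentromere of chromosome 2.

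Gene types differed as strongly as chromosome regions did. Of the 26697 protein-coding genes, 49.6% were H3K4me3 only, 19.6% H3K27me3 only, 4.96% both and 25.9% neither. Neither mark was found on 612 of 623 tRNA genes and on 3601 of 3911 genes annotated as pseudogenes, against 37.4% of all nuclear genes. Transcribed pseudogenes were H3K27me3 only more often, in 274 of 926 (29.6%). Long non-coding RNA genes were H3K4me3 only in 126 of 224 cases (56.3%). The 178 microRNA genes, with a median annotated length of 126 bases, comprised 18 H3K4me3 only, 45 H3K27me3 only, 2 with both marks and 113 with neither. These are 10.1%, 25.3%, 1.12% and 63.5%. The shares were 40.8%, 17.7%, 4.14% and 37.4% of all nuclear genes, and 3.90%, 16.5%, 0.570% and 79.0% of nuclear genes up to 491 bases.

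Copies of some microRNAs fell in different classes. Most microRNA genes are annotated at hairpin size, with a median of 126 bases, while others such as MIR156c are annotated over far longer bodies. The part of annotated length in the class of a copy was not tested. Of 32 mature sequences made by 2 or more genes, 13 came from genes of more than 1 class, and only 2, miR156a-5p and miR166a-3p, came from an H3K4me3 only gene as well as an H3K27me3 only gene. The other 11 came from marked genes and from genes with neither mark. The mature microRNAs of the age, flowering and leaf polarity pathways are shown here, cut from the RefSeq TAIR10.1 genome, because they include these 2 sequences and their relatives, with the seed (bases 2 to 8) in capitals.
miR156a-5p: uGACAGAAgagagugagcac
miR157a-5p: uUGACAGAagauagagagcac
miR172a: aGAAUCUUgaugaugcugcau
miR172c: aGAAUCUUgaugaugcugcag
miR165a-3p: uCGGACCAggcuucauccccc
miR166a-3p: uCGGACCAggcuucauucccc
miR156, which holds plants in the juvenile phase by acting on SPL transcription factors, has the same mature sequence in 6 genes. MIR156b was H3K4me3 only, MIR156e and MIR156f were H3K27me3 only, MIR156a and MIR156c carried both marks and MIR156d neither. MIR156a (82 bases) was covered over its whole length by both marks in all 4 libraries. MIR156c, annotated over 2555 bases, had H3K4me3 over 26.3% and 22.7% of its body and H3K27me3 over 9.32% and 10.0%, and had 7.44 FPKM, whereas the other 5 genes were listed at 0. The related MIR157a, MIR157b and MIR157d were H3K27me3 only, and MIR157c, which makes the same 5p sequence as MIR157a, had neither mark.

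miR172, which acts on AP2-type repressors of flowering, has genes of both marks, but with different mature sequences. MIR172a was H3K4me3 only, with the mark over 13.9% and 12.2% of a 1944-base gene. MIR172c and MIR172d, whose product has another last base, were H3K27me3 only over their whole length in both replicates, and MIR172b and MIR172e had neither mark. miR165 and miR166 share a seed and restrict HD-ZIP III genes in the leaf. MIR166a and MIR166b were H3K4me3 only, MIR165a, MIR165b and MIR166g were H3K27me3 only and the other 4 MIR166 genes had neither mark. Both MIR168 genes, whose product controls AGO1, were H3K4me3 only, and all 3 MIR319 genes, which act on TCP genes of leaf growth, were H3K27me3 only. The FPKM values of hairpin-sized genes say little, since 161 of the 178 were listed at 0.

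**Figure D5:**
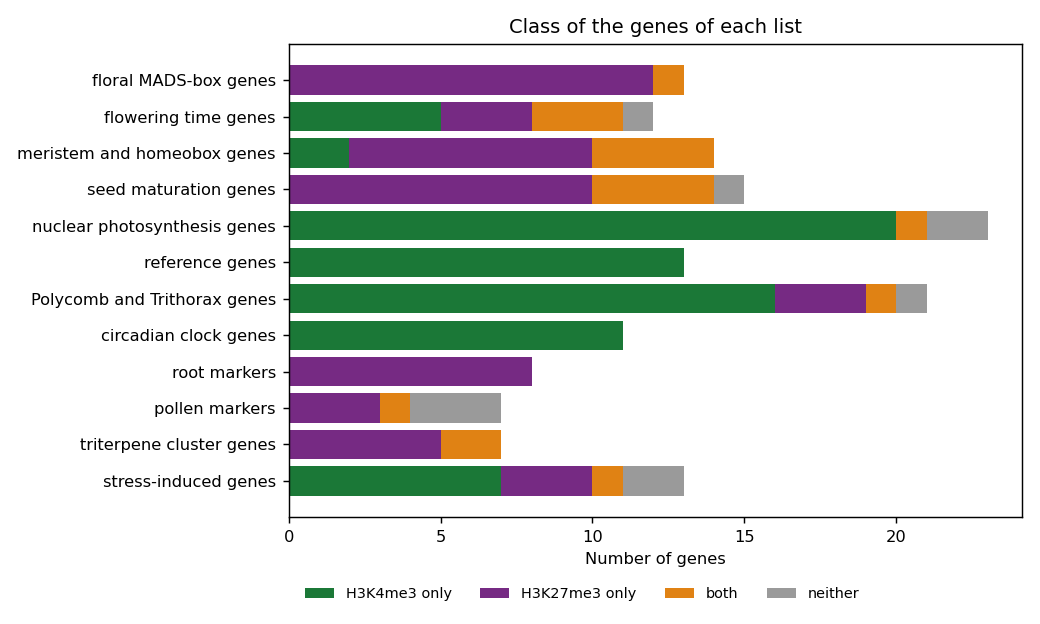
Bars give the number of genes of each class (x axis) in 12 lists of genes with known roles (y axis). Reference genes and clock genes are H3K4me3 only throughout (13 of 13 and 11 of 11), and root markers (8 of 8) and 12 of 13 floral MADS-box genes are H3K27me3 only.

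Genes used as expression standards carried H3K4me3 alone. All 13 reference genes, such as ACT2 (actin), UBQ10 (polyubiquitin) and PP2AA3, were H3K4me3 only, against 40.8% of nuclear genes, at 16.4 to 2179 FPKM. All 11 clock genes were H3K4me3 only as well, at 1.55 FPKM for LHY, a morning gene, to 36.9 FPKM for ZTL, a photoreceptor of the clock. Of 23 nuclear photosynthesis genes, 20 were H3K4me3 only, with a list median of 7230 FPKM. Over the 21 genes with the mark, it covered a median of 80.7% of the body in replicate 1 and 56.1% in replicate 2, against 25.6% and 22.9% in the class H3K4me3 only. These genes were shorter, with a median of 1509 against 2305 bases, and in bases the mark covered 1075 and 845, against 596 and 545 in the class. The 94 H3K4me3 only genes above 1000 FPKM, which include most of this list, had a median of 68.6% of the body covered. LHCA1, a chlorophyll-binding antenna protein of photosystem I, was covered over 97.9% and 81.6% and had 10411 FPKM. PSBR, a subunit of photosystem II, had the highest level of the class, 16305 FPKM, with 79.1% and 64.3% of its body covered.

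The exceptions among photosynthesis genes were members of the LHCB1 and RBCS families, which hold close copies. Other members of these families, LHCB1.1, RBCS1A and RBCS3B, were H3K4me3 only. LHCB1.2, an antenna gene of photosystem II, had 16063 FPKM and counted as neither, because H3K4me3 covered 38.6% of it in replicate 1 and none in replicate 2. Its neighbour LHCB1.3 was listed at 0 FPKM although H3K4me3 covered 91.4% and 33.4% of it. The copies are nearly identical, so the split of reads between them is uncertain, and its part in these values was not tested. RBCS1B, a small subunit gene of Rubisco, likewise had H3K4me3 in replicate 1 only. RBCS2B next to it had both marks, with H3K27me3 over 86.1% and 75.2% of the body, at 1232 FPKM.

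Genes of floral organs mostly carried H3K27me3 alone. Of 13 floral MADS-box genes, 12 were H3K27me3 only, against 17.7% of nuclear genes. AG, which specifies stamens and carpels, was covered over 79.3% and 81.7% of its body (chr4:10382856-10388539) and had 0.0501 FPKM. AP1, AP3 and SEP1 had 0.0165, 0.186 and 0.0140 FPKM. SEP3 was the exception in expression, at 23.0 FPKM, with H3K27me3 over 88.3% and 88.5% of its body and no H3K4me3 peak in either replicate. SEP4, which carried both marks, had 2.42 FPKM. No gene of this list overlapped an anti-H3 peak, against 43.7% of all nuclear genes. In the wider family, by product name, 57 of 125 MADS-box genes were H3K27me3 only (45.6%) and 54 had neither mark (43.2%), against 17.7% and 37.4% of nuclear genes.

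Flowering time genes fell into all 4 classes. SVP and SOC1, a repressor and an activator of flowering, were H3K4me3 only at 93.4 and 18.3 FPKM. FT, which encodes the mobile flowering signal, was H3K27me3 only, over 58.2% and 60.7% of its body, at 0.436 FPKM, and its relatives TSF and TFL1 were H3K27me3 only at 0 and 1.61 FPKM. FLC, the target of vernalization, carried both marks at 1.70 FPKM. H3K4me3 covered 8.57% and 8.80% of FLC (chr5:3173497-3179448), with a fold enrichment of 8.01 in replicate 1 and 3.10 in replicate 2, and H3K27me3 covered 95.9% and 87.2%. Its relatives MAF1, MAF2 and MAF3 were H3K4me3 only at 23.0, 17.4 and 7.29 FPKM, MAF4 had neither mark at 1.06 FPKM and MAF5 had both at 0.340 FPKM, so that 3 classes met within the MAF2 to MAF5 array on chromosome 5. LFY carried both marks, with H3K4me3 over 34.6% and 35.6% and H3K27me3 over 76.7% and 75.8% of the body, and had 0.0319 FPKM.

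Meristem regulators were mostly under H3K27me3, and several held a short stretch of H3K4me3 as well. Of 14 genes, 8 were H3K27me3 only and 4 had both marks, against 17.7% and 4.14% of nuclear genes. STM and KNAT1, homeobox genes of the shoot meristem, were covered by H3K27me3 in full in both replicates, at 2.48 and 2.56 FPKM. WUS, WOX1, KNAT6 and CUC2 carried both marks. WUS, the organizer of the shoot stem cells, was listed at 0 FPKM with H3K27me3 over the whole gene and H3K4me3 over 7.58% and 11.5%, at fold enrichments of 1.80 and 1.86. CUC2, which sets organ boundaries, had H3K4me3 over 26.9% and 26.7%. CLV1 and CUC1 were the list's H3K4me3 only genes, and CLV3, the peptide ligand of CLV1, was H3K27me3 only at 0 FPKM against 21.7 FPKM for CLV1. Of the 14 genes, 8 overlapped an anti-H3 peak, not far from the 43.7% of all nuclear genes.

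Of 15 seed maturation genes, 10 were H3K27me3 only and 4 had both marks, against 17.7% and 4.14% of nuclear genes. The storage protein genes SESA1 to SESA4 had the same H3K27me3 enrichment, 2.18 and 2.71, over their whole length and had between 0 and 0.153 FPKM. SESA2, SESA4, CRU2 (cruciferin 2) and DOG1 also had an H3K4me3 peak in replicate 1 but none in replicate 2. LEC1, LEC2 and ABI3, regulators of embryo identity, carried both marks at 0.0464 FPKM or less. For LEC2, H3K4me3 touched only 1.296% and 0.864% of the gene, and for LEC1 no base lay under both marks in both replicates. DOG1 had the highest level of the list, 4.81 FPKM. An anti-H3 peak lay on 13 of the 15 genes, against 43.7% of all nuclear genes. Among 7 pollen markers, none reached 1 FPKM and 3 were H3K27me3 only, against 17.7% of nuclear genes. VGD1 had both marks, and DUO1, TIP1;3 and TIP5;1 had neither, as did 37.4% of nuclear genes.

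H3K27me3 was also found on genes with a measured transcript. All 8 root markers were H3K27me3 only, against 17.7% of nuclear genes, with the mark over at least 95.5% of the body in both replicates. EXPA7 and EXPA18, expansins of root hairs, had 21.5 and 23.3 FPKM and COBL9 had 3.44 FPKM. RHD6 had 1.29 FPKM, and IRT1, NRT2.1, PLT1 and PLT2 were under 1 FPKM, at 0.726, 0.0678, 0.380 and 0.364. The paper states that aerial parts were harvested, while its ChIP protocol speaks of seedlings. Whether root material was present in the RNA or the chromatin was not tested. Of the 8 root markers, 7 overlapped an anti-H3 peak, against 43.7% of all nuclear genes. The 7 genes of the thalianol and marneral clusters, which make root triterpenes, were H3K27me3 only (5 genes) or both (2 genes) at 5.13 to 40.8 FPKM. These classes held 17.7% and 4.14% of nuclear genes. THAD, a cytochrome P450 of the thalianol pathway, had the highest H3K27me3 enrichment of the list, 4.22 and 4.78, and its highest FPKM, 40.8. The 5 most highly expressed H3K27me3 only genes were PYK10, a beta-glucosidase of root endoplasmic reticulum bodies, at 2127 FPKM, MLP34 at 1969, AT4G23670 at 1555, DR4 at 1531 and AT1G23130 at 1226 FPKM (AT4G23670 and AT1G23130 are annotated as polyketide cyclase and lipid transport proteins). MLP34, DR4 and AT1G23130 were covered in full in both replicates.

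The 5 most expressed genes with both marks were LP1, GRP-3, PRP4, RBCS2B and LTP2. LP1 and LTP2, neighbouring lipid transfer protein genes of the epidermis, had 3101 and 723 FPKM, GRP-3, a glycine-rich protein, had 2147 FPKM and PRP4, a proline-rich cell wall protein, 1256 FPKM. RBCS2B, the Rubisco gene described above, had 1232 FPKM. H3K27me3 covered 4.48% and 43.3% of LP1. Its fold enrichment on LTP2 was 1.46 and 1.43, near the lowest of any peak in these lists, 1.34 and 1.36. PRP4 had H3K4me3 over 67.3% and 61.4% and H3K27me3 over 96.1% and 100% of its body, with 1078 bases under both marks. The 5 genes with the highest combined enrichment of both marks had at most 7.14 FPKM, with 2 above and 3 below the class median of 2.90 FPKM. KAN2, a regulator of leaf polarity, had fold enrichments of 7.61 and 7.21 for H3K4me3 and 3.16 and 3.63 for H3K27me3, at 0.972 FPKM. CAF1b, a deadenylase subunit, had 7.14 FPKM, and AT5G02970, AT1G26500 and AT5G40316 had 4.38, 0.418 and 0.0707 FPKM. The highest H3K27me3 enrichments among H3K27me3 only genes, 4.58 to 6.15, were on AT1G11230, AT1G55700, the F-box gene DAF1 and the adjacent pair AT5G16285 and AT5G16286, of which 4 were listed at 0.

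The genes of the Polycomb and Trithorax list were mostly H3K4me3 only, in 16 of 21 cases (76.2%, against 40.8% of nuclear genes and 49.6% of protein-coding genes). CLF and SWN, the catalytic subunits of Polycomb repressive complex 2 in vegetative tissue, had 3.60 and 8.54 FPKM, and MSI1, a histone-binding subunit, had 22.6 FPKM. MEA and FIS2, the seed-specific subunits, were H3K27me3 only, over 80.5% and 81.6% of MEA, at 0.0234 and 0 FPKM. VIN3, which is induced by prolonged cold, was H3K27me3 only over 75.1% and 73.3% of its body and was listed at 0. EMF1 carried both marks, with no base under both of them in both replicates, and VRN2 had neither mark, at 5.57 FPKM.

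Stress-induced genes did not follow one class. CBF1, CBF2 and CBF3, the cold-response regulators, were H3K4me3 only at 1.85 to 8.26 FPKM, with the mark over 65.1% or more of the gene in every library. COR15A, one of their targets, carried both marks at 28.5 FPKM, and KIN1 was H3K27me3 only at 25.5 FPKM, over 25.1% and 16.4% of the gene. PR1 and PDF1.2, defence genes, were H3K27me3 only at 0.130 and 0.491 FPKM. ADH1, alcohol dehydrogenase, had 110.4 FPKM and neither mark. It was not alone: among the 115 genes above 1000 FPKM, 94 were H3K4me3 only, 8 H3K27me3 only, 4 both and 9 neither. Of the last, AGT, a photorespiratory enzyme, had no peak of either mark at 1700 FPKM, and PSAH2, a photosystem I subunit, had an H3K4me3 peak over 73.3% of the gene in replicate 1 and none in replicate 2.

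Families taken by product name spread across the classes. Ribosomal protein genes were H3K4me3 only in 265 of 360 cases (73.6%), and histone genes in 34 of 47 (72.3%), against 40.8% of nuclear genes. Their median levels were 95.7 and 47.0 FPKM. Among all nuclear genes above 10 and up to 100 FPKM the H3K4me3 only share was 78.6%, so these shares were near that of genes at such levels. F-box genes were H3K27me3 only in 383 of 706 cases (54.2%), peroxidases in 51 of 98 (52.0%), expansins in 17 of 36 (47.2%), pectin-related genes in 118 of 254 (46.5%), NAC genes in 51 of 117 (43.6%) and cytochrome P450 genes in 108 of 264 (40.9%), against 17.7% of nuclear genes. Defensin-like genes, which are short (median 410 bases), had neither mark in 110 of 138 cases (79.7%). The share was 37.4% of all nuclear genes and 79.0% of nuclear genes up to 491 bases. WRKY and homeobox genes had the largest shares of both marks among these families, 13 of 72 (18.1%) and 15 of 82 (18.3%), against 4.14% of nuclear genes. Disease resistance genes were divided, with 58 H3K4me3 only, 43 H3K27me3 only, 9 both and 55 neither of 165. These are 35.2%, 26.1%, 5.45% and 33.3%, against 40.8%, 17.7%, 4.14% and 37.4% of nuclear genes. The H3K27me3 only peroxidase genes had a median of 14.1 FPKM, against 0 for F-box and 0.259 for cytochrome P450 genes of that class.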

How the data were processed

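ChIP-seq peak lists and an RNA-seq table of diploid Col-0 seedlings were used as deposited. The authors aligned ChIP-seq reads with BWA (build TAIR10 per the submitters' processing notes). By the paper's account, peaks were called with Macs2 at default parameters, with the anti-H3 reads as control. For each sample 1 list was deposited. The deposited peak lists give fold enrichment as a ratio and a −log10 q-value. The deposited FPKM values come from STAR and featureCounts on TAIR10; how 3 samples became 1 column is not given in the sources used here. Depth of the peak and FPKM files is unknown. R 3.4.1 is named in the submitters' processing notes.

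Peaks were intersected with gene bodies (minimum overlap 1 base) in Python 3.11.15 with pandas 2.3.3 and numpy 2.4.6, after tests on simulated data. The scale was log2(FPKM + 1). Locus names matched RefSeq TAIR10.1 for 32820 of 33278 genes, which gave gene types, products and sequences. Only 10584 genes had the same start and end in RefSeq. Gene starts, ends and lengths, and the promoters set from them, follow the deposited table. Distances from the gene start and promoter motifs depend on that choice. The genes named were all members of 12 role lists, microRNA genes, the longest H3K27me3 run and the 5 highest genes of each class by FPKM or enrichment. The members and lists were chosen with earlier results of these data known. The autotetraploid peak lists and FPKM column were not used here, and Hi-C served only to compare its number of 50 kb bins with the reference.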

Additional observations from a re-analysis of the deposited data

How the results depend on the processing

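H3K4me3 only exceeded H3K27me3 only in expression under every alternative run, and the library measures kept their direction in all of them. The length difference was the exception in direction. Depth is unknown for peak lists and FPKM, so missing peaks could not be separated from shallow sequencing. Requiring a peak over 50% of the gene body gave 2183 genes H3K4me3 only, 228 both and 25607 neither, a log2 difference of 4.49 in expression, a reversed length difference of −230 bases (the rule selects short genes by construction), 3.17% of H3K27me3 only and 15.2% of neither in pericentromeres, 43.0% of H3K27me3 only genes followed by their own class and 100% of both with shared bases. At 10% of the body these were 3.83 (log2), 662 bases, 24.8% (neither, pericentromeres) and 83.8% (shared bases). Peaks at a q-value of 1e-05 or less left 3475 genes H3K27me3 only and 543 both, with 2.62% and 23.0% of H3K27me3 only and neither in pericentromeres, 42.3% of neighbours and 79.0% with shared bases, and the marks' libraries then overlapped in genome share (difference −0.3334 points, exact permutation p = 0.6667). With a peak in either replicate the values were 3.58, 863 bases, 3.98% and 32.4%. With genes marked in 1 replicate only left out they were 857 bases, 32.4% of neither and 44.8% of neighbours. Counting only the first 500 bases gave 870 genes with both marks, 923 bases, 26.4% of neither, 41.3% of neighbours and 98.6% with shared bases. Adding 500 bases upstream gave 3.53, 821 bases, 30.7%, 45.5% and 60.9%. Protein-coding genes alone gave 6918 in neither, 798.5 bases, 2.83%, 8.49% and 41.6%. Genes that overlap no other gene gave 867 bases and 31.1% of neither. Genes without an anti-H3 peak, an alternative chosen after seeing the data, comprised 6684 H3K4me3 only, 3743 H3K27me3 only, 232 both and 8072 neither, with 3.52, 884.5 bases, 17.8% of neither, 42.2% of neighbours and 58.2% with shared bases. The expression difference was 6.54 with a pseudocount of 0.1, 2.93 without genes listed at 0, and 4.26, 4.49, 3.85, 3.45 and 2.92 in the 5 length groups from shortest to longest. Pericentromeres set at 25% of the median density held 1.04% of H3K27me3 only and 17.7% of neither. The causes of the other moves were not tested.

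Leaving out 1 library at a time gave 3.57 to 3.65 for expression, 837 to 853 bases for length, 3.76% to 4.02% of H3K27me3 only and 29.3% to 30.5% of neither in pericentromeres, 42.6% to 44.8% of neighbours and 75.3% to 79.9% with shared bases. The class counts lay between 13412 and 14384 for H3K4me3 only, 5561 and 6195 for H3K27me3 only, 1428 and 1700 for both and 11633 and 12182 for neither. The differences between the marks' libraries with the replicate number as a block were 24.0 percentage points of genes, 3.33 (log2 FPKM), 730 bases, −1.51 percentage points in pericentromeres and −3.48 of the genome, as without it. The replicate differences of the marks in covered share correlated at −0.0141 across genes. This value cannot show whether libraries of the same number shared material, which the labels do not state.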
